A study of Homo sapiens with 6 samples.

Results

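The comparison described here is that of 22RV1 cells made to overexpress the microRNA miR-338-5p with control 22RV1 cells. Its members were the 3 arrays whose labels name miR-338-5p overexpression, of 6 arrays in all, and the genes were described across these 3 arrays. 22RV1 is an established human prostate cancer line, labelled as positive for SPINK1, a secreted trypsin inhibitor. Per the labels, the miR-338-5p line carried the lentiviral vector pLemiR-338-5p, the control carried pLemiR-RFP (a red fluorescent protein), and the other 3 arrays held a line with pLemiR-421 against the same kind of control. All lines shared the lentiviral vector, RPMI medium with serum, and puromycin selection. The sources used here do not give the promoter of the vector, the time of harvest, or whether a line was 1 clone. The miR-338-5p samples are labelled C-1, C-2 and C-3, here replicates 1, 2 and 3, and the miR-421 samples are labelled Pool, C-1 and C-2. The labels do not say what C or Pool stands for, so whether the numbered samples are repeated cultures or separately derived cells is not known. Nothing says that these came from separate cultures, so p-values measure only the spread between these samples, which may be technical. The series title sets EZH2 and both microRNAs in the context of SPINK1-positive prostate cancer.

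A microRNA is a short RNA that guides a silencing complex to messenger RNAs. Pairing runs mostly through its seed, the bases near its 5′ end, and usually lowers the level or the translation of the paired message. A stable line also shows whatever follows from those first targets, so a list of changed messages is a mixture of direct and indirect changes. These sequences are the designed difference between the lines. Both arms of MIR338 and the mature miR-421 are printed 5′ to 3′ from RefSeq, with the seed (bases 2 to 8) in capitals.

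hsa-miR-338-5p: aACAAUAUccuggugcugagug

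hsa-miR-338-3p: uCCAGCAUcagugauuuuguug

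hsa-miR-421: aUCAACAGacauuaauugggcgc

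The mature miR-338-5p lies on chromosome 17 at 81125923 to 81125944, minus strand, and miR-421 on chromosome X at 74218392 to 74218414, minus strand (GRCh38.p14). Neither arm of MIR338 has the seed of miR-421. The array carried no probe for either precursor, so the overexpression itself was not measured here.

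On every array the control RNA was in Cy3 (green) and the RNA of the microRNA line in Cy5 (red), with no dye swap. A value below is a log2 ratio of Cy5 over Cy3, so 1 means a doubling in the microRNA line and -1 a halving. Between 44.3% and 47.9% of gene spots were well above background in Cy3 and between 41.9% and 48.3% in Cy5, and none of the gene spots reached saturation (0 on each array). All 10 prostate luminal markers were well above background in either dye on all 3 miR-338-5p arrays. In the test 3 of these 10 fell and 0 rose, against 6.10% and 4.56% of all genes. Their mean ratios ran from -3.97 to 1.41 (median -0.77). Under miR-421, where 25.8% of all genes passed, 3 fell and 1 rose. Markers of other cell types were mixed. KRT5 and TP63 of 5 basal markers, COL1A2, COL3A1 and PDGFRA of 6 fibroblast markers, PECAM1 and KDR of 4 endothelial markers and the neuroendocrine marker INSM1 were well above background in neither dye on any of them. The basal KRT15, the fibroblast COL1A1, the endothelial VWF and CDH5, the neuroendocrine CHGA and ENO2 and all 3 leukocyte markers on the array (PTPRC, CD3E and CD79A) were well above background in both dyes on all 3. None of the tested basal, fibroblast, endothelial or leukocyte markers passed the test (0 of 2, 0 of 3, 0 of 2 and 0 of 3), and of 3 neuroendocrine markers ENO2 fell, at -0.78. Their part in the results was not tested. In bulk RNA, fewer cells of a type and less RNA per cell cannot be told apart.

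Under miR-338-5p, 1674 of 15697 genes (10.7%) differed from control in limma's moderated test with a Benjamini-Hochberg adjusted p under 0.05. Each gene was read from its brightest probe. Of these, 716 rose (4.56% of all genes tested) and 958 fell (6.10%). Over probes, 2479 of 27507 passed (9.01%), 266 of them by at least 2-fold, and all 2479 had the same sign on the 3 arrays. The split of these calls rests on the scaling. Of the called probes 58.3% were lower, against 44.2% in the authors' table, 45.5% after subtracting the background, 45.8% in the scanner software's own ratio and 82.0% under median centring. Every array mattered to the count. It was 564 without replicate 1, 577 without replicate 2 and 409 without replicate 3, and it was also 1154 without the miR-421 pool, 3647 without miR-421 replicate 1 and 750 without miR-421 replicate 2, because all arrays shared 1 estimate of the spread.

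The largest rises were led by genes of the integrated stress response, in which the translation factor ATF4 switches on genes for amino acid supply and, under long stress, for cell death. ATF3, a transcription factor induced by ATF4, stood at 2.39, 1.93 and 2.10 on replicates 1 to 3 (mean 2.14 ± 0.23 SD, n = 3; limma adjusted p = 0.0055). CHAC1, which breaks down glutathione, stood at 2.04, 1.62 and 2.37 (2.01 ± 0.38), DDIT3, the pro-apoptotic factor CHOP, at 2.17, 1.77 and 1.95 (1.96 ± 0.20), and TRIB3, a pseudokinase that feeds back on ATF4, at 1.98, 1.39 and 1.80 (1.72 ± 0.30). Each of these was high on all 3 arrays. Under miR-421 their means were 1.79, 2.22, 1.31 and 2.13. Dimmer probes gave smaller values under miR-338-5p. Those of ATF3 stood at 1.23, 1.00 and 0.05, the last not passing (adjusted p = 0.69, limma). That of CHAC1 stood at 0.48 and did not pass (adjusted p = 0.093, limma). The other genes in the 10 largest rises were EPHA3, the cancer-testis antigen gene XAGE1A (XAGE1B on the array) at 1.80 ± 0.50, ZSCAN18, HLA-B, COL9A3 and the small noncoding RNA SNAR-B2. SNAR-B2 stood at 2.66, 1.05 and 1.07, with replicate 1 far above the others (mean 1.59), and SNAR copies are near-identical, which leaves its identity uncertain.

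The largest falls were those of SPINK1 and of several enzymes. SPINK1 stood at -3.04, -2.10 and -6.78 (mean -3.97 ± 2.47 SD, n = 3; limma adjusted p = 0.042). It was lower on each array, but its spread was among the widest of all genes. ASS1, which makes argininosuccinate on the way to arginine, stood at -3.85, -3.49 and -3.71, and AKR1C3, an enzyme that makes potent androgens from weaker steroids, at -2.07, -3.02 and -4.55 (mean -3.21). CLDN11, a tight junction protein, stood at -1.86, -3.30 and -4.14 (mean -3.10) and DDC, the decarboxylase that makes dopamine and serotonin, at -2.45, -1.67 and -4.52 (mean -2.88). HSPA1A, an inducible HSP70 chaperone, stood at -1.69, -3.03 and -2.38 (mean -2.37). PCP4L1 (-3.45 ± 0.11), CORO1A, an actin-binding protein (-2.21), AMER3 (-2.24) and BEND4 (-2.0) completed the 10 largest falls. The miR-421 line had low means for these too, such as -6.62 for SPINK1, -3.61 for ASS1, -3.02 for PCP4L1 and -1.16 for HSPA1A. ASS1, PCP4L1, CORO1A, BEND4, ATF3, CHAC1, DDIT3, TRIB3 and COL9A3 passed the threshold in all 17 alternative analyses. SPINK1 and DDC passed in 10, EPHA3 in 10, ZSCAN18 in 9, and SNAR-B2 and AMER3 in 8 each.

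**Figure D1:**
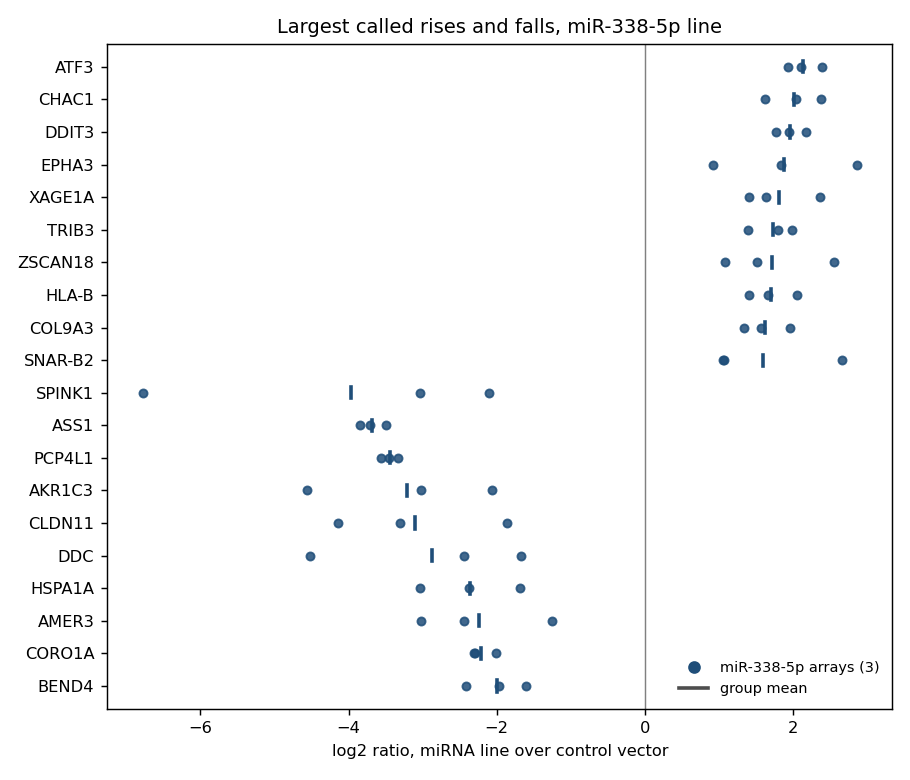
Log2 ratio of the miR-338-5p line over control on each of the 3 arrays (points) with the group mean (bar) for the 10 genes that rose most and the 10 that fell most. The points of the stress genes ATF3, CHAC1, DDIT3 and TRIB3 lie closer together than those of SPINK1, DDC and EPHA3, which are spread far apart.

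Over probes, the ratios of replicates 1 and 2 correlated with r of 0.52, those of 1 and 3 with 0.61 and those of 2 and 3 with 0.48. Of 15697 genes, 3670 were above 0 on all 3 arrays and 4498 below 0 on all 3. The signs of the rest were not the same on all 3. The genes with the widest spreads in the line are described here. The SD over the 3 arrays had a median of 0.17 over all genes and a 90th percentile of 0.45. ALB, the liver plasma protein albumin, stood at -2.89, 2.17 and -5.12, and S100P, a calcium-binding protein of epithelial tumours, at 2.41, -2.59 and 3.0. For ALB and S100P replicate 2 went the opposite way from replicates 1 and 3. The same replicate alone was high for SERPINE2, a protease inhibitor (-0.44, 3.89 and -0.43), PCDH20, a protocadherin (-0.11, 3.83 and -0.44), and SMIM24 (-1.37, 3.04 and -1.43). Replicate 3 alone was high for CTSV, a lysosomal protease (0.31, 0.31 and 5.18), and AMOT, an angiomotin (-0.25, 0.00 and 3.84). HGF, the ligand of the MET receptor, stood at -2.31, 0.19 and -4.27, and SLC45A3, a prostate transporter gene, at -1.15, 1.37 and -2.70. These belong to the 12 genes with the widest SD, a choice made after values were seen. Of the 12, SPINK1 alone passed the test.

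The stress genes were described by lists of genes with a shared role. Among 20 regulators of the integrated stress response, 9 rose and 2 fell (median 0.76, against -0.01 over all genes tested). The share called was 55.0%, against 10.7% of all genes. Under miR-421, where 25.8% of all genes passed, 10 rose and 2 fell (median 0.78). ATF4 itself stood at 0.92, 0.90 and 1.1 (adjusted p = 0.0082, limma), CEBPB at 1.22 ± 0.22 and SESN2, a brake on mTORC1, at 1.01 ± 0.14. Of 21 genes that ATF4 uses to supply amino acids, 10 rose and 0 fell (median 0.53, 47.6% called). Examples are the asparagine synthetase ASNS (1.83, 1.03 and 0.69) and SLC3A2, the heavy chain of amino acid transporters (1.19 ± 0.24), while the cystine transporter gene SLC7A11 at 1.32 ± 0.40 did not pass (adjusted p = 0.059, limma). Of 20 cytosolic tRNA synthetases, many of which are ATF4 targets, 2 rose and 0 fell, a share of 10.0% that is near the 10.7% of all genes. ER chaperones and other genes of the unfolded protein response were at 4 of 19 higher (21.1% called). Their median was 0.05, and its sign turned under some alternatives. ADM2, a secreted stress peptide, rose (1.09 ± 0.16), as did VEGFA (0.93 ± 0.07).

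The letters through which ATF4 is known to act, the CARE element, were looked up in the promoters of the regulator and amino acid lists. RefSeq promoter windows (250 bases before to 50 after the start, GRCh38.p14) were found for 16 of 20 regulators and 15 of 21 amino acid genes. The letters TTNCATCA, on either strand, were in 3 of the 16 (18.8%) and 4 of the 15 (26.7%), against 3.67% of all 27305 promoters of this length and 1.90% of those of the genes tested. Most of the promoters found did not hold the letters, and DDIT3 and TRIB3 were not among the genes with a match. A match describes these letters, not a bound site. The stretches around the match in 3 genes that rose are shown because they carry the element in either orientation, with the match in capitals.

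ATF3, chr1:212565196-212565243, plus strand: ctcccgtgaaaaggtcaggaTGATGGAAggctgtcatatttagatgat

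CHAC1, chr15:40953242-40953289, plus strand: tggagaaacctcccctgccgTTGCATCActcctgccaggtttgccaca

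ASNS, chr7:97872449-97872496, minus strand: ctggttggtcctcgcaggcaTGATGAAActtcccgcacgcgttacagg

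Not every gene with these letters rose. The same letters stand in the promoters of PPP1R15B, at -0.21 (adjusted p = 0.67, limma), and BCAT1, at -0.30 (adjusted p = 0.35, limma).

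Lists of heat shock, sterol and DNA replication genes had more falls than rises, though most of their members did not pass. Of 13 heat shock genes 6 fell and 0 rose (median -0.60, 46.2% called against 10.7% of all genes). Under miR-421, where 25.8% of all genes passed, 7 fell and 1 rose (median -0.57). HSPA8, the constitutive HSP70, stood at -1.64, -1.77 and -1.65, HSPA1B at -1.92, -2.02 and -1.69, and DNAJA1, an HSP40 co-chaperone, at -1.02 ± 0.07. HSPA1A and HSPA1B encode nearly the same protein and their probes may share transcripts. The heat shock element letters GAANNTTC were in 5 of 12 promoters of the list (41.7%), against 6.87% of all and 4.81% of those of the genes tested. HSPB1, which also holds them, stood at 0.28 and did not pass (adjusted p = 0.18, limma). The promoter stretches of HSPA8 and HSPA1B, members that fell, are shown with the match in capitals.

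HSPA8, chr11:123062339-123062386, minus strand: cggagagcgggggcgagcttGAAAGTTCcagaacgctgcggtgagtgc

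HSPA1B, chr6:31827613-31827660, plus strand: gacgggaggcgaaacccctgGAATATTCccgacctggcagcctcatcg

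Of 23 genes of sterol and fatty acid synthesis, most of them under the SREBP factors, 9 fell and 0 rose (median -0.51). The share called was 39.1%, against 10.7% of all genes. Under miR-421, where 25.8% of all genes passed, 8 fell and 1 rose (median -0.31). INSIG1, which holds SREBP in the ER, stood at -2.07, -1.74 and -2.04, and the synthase HMGCS1 at -1.62, -1.70 and -1.34. The isomerase IDI1 stood at -1.15 ± 0.20. The sterol element letters TCACNCCAC were in 1 of 16 of these promoters (6.25%), against 1.15% of all and 1.19% of those of the genes tested. The 1 promoter was that of SREBF2, which stood at -0.11 and did not pass (adjusted p = 0.54, limma). Of 46 S phase genes 14 fell and 0 rose (median -0.47, 30.4% called), and 15 fell and 4 rose under miR-421. Of 36 genes of G2 and M phase 7 fell and 0 rose (median -0.40, 19.4% called). FEN1, the flap endonuclease of DNA replication, stood at -0.73, -0.83 and -0.81, the helicase subunit MCM6 at -0.93, -1.13 and -0.94, and the sliding clamp PCNA at -0.38, -0.91 and -0.88. The E2F letters TTTNNCGC were in 24 of 39 S phase promoters (61.5%), against 6.90% of all and 9.88% of those of the genes tested. Most of the S phase genes with these letters did not pass, and FEN1, which fell, was not among the genes with a match. Examples of genes with the letters that did not pass are E2F1 at 0.01 (adjusted p = 0.98, limma) and POLA2 at 0.35 (adjusted p = 0.087, limma). The stretch of MCM6 is shown as the member of this list that fell and holds 4 matches in its window.

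MCM6, chr2:135876568-135876615, minus strand: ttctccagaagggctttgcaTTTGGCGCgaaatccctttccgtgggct

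Cytosolic ribosomal protein genes moved the other way, with 17 of 58 higher and 1 lower (median 0.42, 31.0% called against 10.7% of all genes). Under miR-421, where 25.8% of all genes passed, 17 were higher and 3 lower. The lower gene was RPL22, at -0.58, -1.45 and -0.96. The median of this list was 0.08 in the authors' table and 0.14 in the software's ratio, so its size rests on the normalization. Over the 17 alternatives the number of members called ran from 7 to 14 for the stress regulators, 2 to 8 for heat shock, 3 to 10 for sterol synthesis, 1 to 26 for S phase and 0 to 22 for ribosomal proteins.

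**Figure D2:**
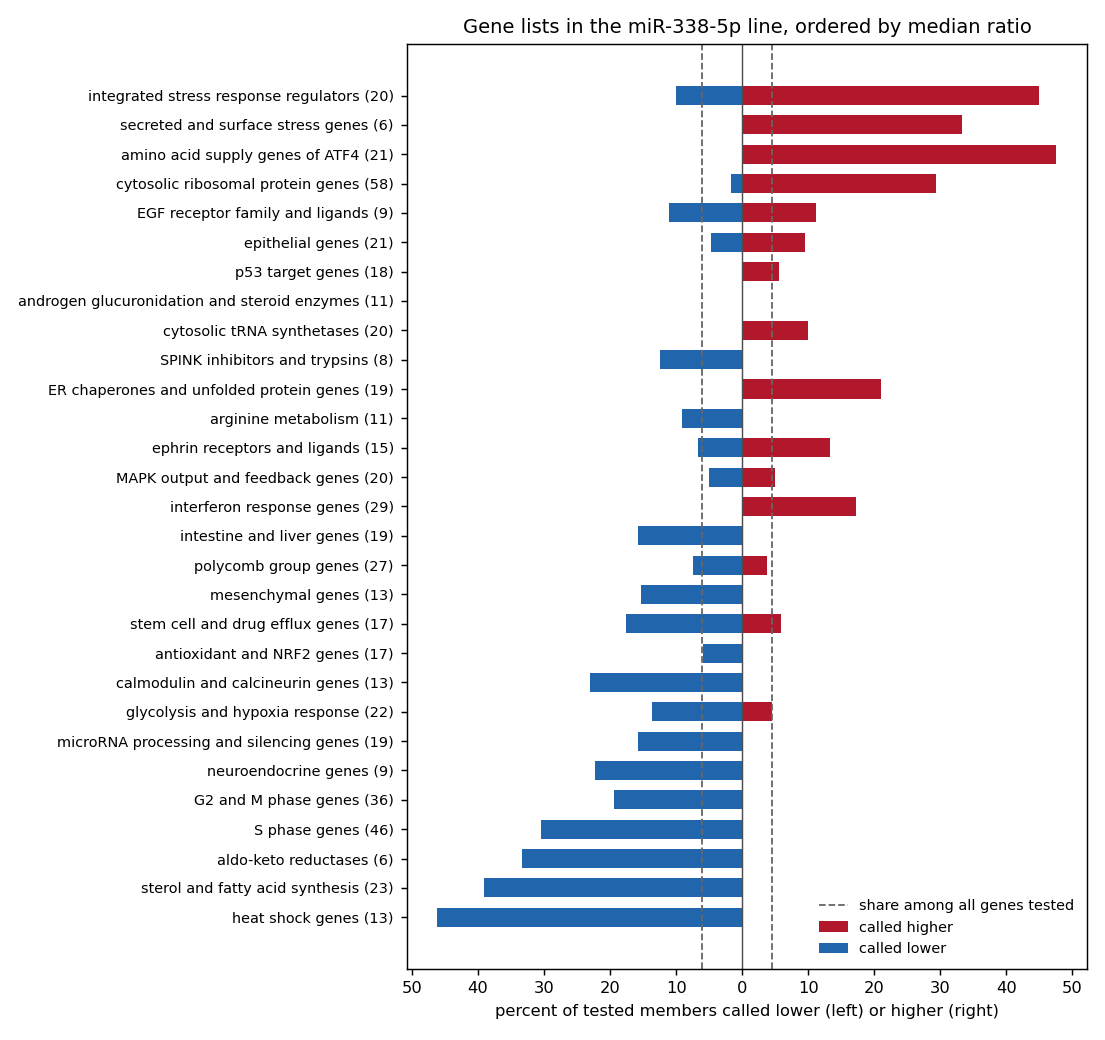
Percent of the tested members of each gene list drawn that were called lower (left) or higher (right) under miR-338-5p, with dashed lines at the shares among all genes tested, 6.10% and 4.56%. The androgen response list and the cell type markers are not drawn. Stress response, amino acid and ribosomal protein lists extend to the right, and heat shock, sterol and S phase lists to the left.

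Other lists gave fewer calls. Of 21 tested genes of an androgen response list, 4 fell and 0 rose (19.0% called, against 10.7% of all genes). Of the 21, 9 lay above 0 and 12 below (median -0.06). Among those that fell were ELL2, an elongation factor (-1.64, -1.58 and -1.81), NDRG1 and CENPN (-0.58 ± 0.26). KLK3, which encodes PSA, stood at 0.15, 1.85 and 2.22 (adjusted p = 0.084, limma) and did not pass. N-cadherin (CDH2) fell, with -0.86, -1.10 and -1.02, and so did LGALS4, an intestinal galectin, with -1.52, -1.34 and -1.45. Of 20 genes of MAPK output and feedback 1 rose and 1 fell, a share of 10.0% that is near the 10.7% of all genes: JUN (1.52, 1.31 and 1.29) and EGR1 (-0.68, -0.85 and -1.92). Of 19 genes of microRNA processing and silencing 3 fell (15.8%, against 6.10% of all genes), a small count from which nothing is read. Among them was DICER1, the enzyme that cuts precursors, at -0.58, -1.06 and -1.21. EZH2, the methyltransferase named in the series title, stood at -0.23 ± 0.14 (adjusted p = 0.60, limma), MTDH at -0.13 (adjusted p = 0.69, limma), and AATK, the gene that hosts MIR338, at 0.75 (adjusted p = 0.17, limma). FTX, a long noncoding RNA gene, was not among the tested genes.

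Changes that the miR-421 arrays did not share are described next. The lines were set against the same kind of control in the same dye, so their values are given side by side and an overlap is not used as evidence. Under miR-421, 4053 of 15694 genes (25.8%) passed, and 1109 genes passed in both lines. A gene was taken as not shared when it passed under miR-338-5p, did not pass under miR-421, and its 3 ratios did not overlap the 3 ratios of miR-421. Ratios failed to overlap for 3362 of 15627 genes (21.5%) and for 5411 of 27382 probes (19.8%) whatever their call. This rule gave 365 genes, of which 247 were higher and 118 lower under miR-338-5p, and 39 had opposite signs on all arrays of the lines. A miss of the threshold under miR-421 does not show that a gene was unchanged there, so the difference between the lines was tested itself. Of all 27495 probes, 13 (0.0473%) passed that test after adjustment, and 3743 had an unadjusted p under 0.05. The 13 became 1, 4 and 0 without miR-338-5p replicates 1, 2 and 3, 0, 1 and 0 without the miR-421 pool, replicate 1 and replicate 2, and 0 with a block for the replicate number. Genes not shared numbered 76, 73 and 65 without miR-338-5p replicates 1, 2 and 3, and 214, 803 and 190 without the miR-421 pool, replicate 1 and replicate 2.

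The class I HLA genes, which present peptides to cytotoxic T cells, held 3 of the 8 largest differences among the genes not shared and higher. HLA-B (NM_005514; probe on chromosome 6, 31321663 to 31321722, minus strand, hg19) stood at 1.66, 1.40 and 2.05 under miR-338-5p (1.70 ± 0.33) and at a mean of -0.04 under miR-421. HLA-C stood at 1.29, 1.14 and 1.79 (mean 1.40), against -0.27, and HLA-G at 1.04, 0.99 and 1.52 (mean 1.18), against -0.18. For each of these all 3 miR-338-5p arrays lay above all 3 miR-421 arrays, but the tested differences, 1.75, 1.67 and 1.36, did not pass (limma adjusted p = 0.12, 0.12 and 0.13). Across the 11 class I probes described here, 9 were higher under miR-338-5p and 0 lower, 0 passed under miR-421, and 10 did not overlap between the lines, all 10 above. Over all probes, 9.01% passed under miR-338-5p and 19.8% did not overlap. The medians of the class I probes were 1.18 and -0.09. The probes did not all move: the brightest of them, for HLA-E (0.26, -0.38 and 0.28), did not pass, while a dimmer HLA-E probe did, at 0.83, 0.91 and 1.27. Class I genes are close relatives and their probes may share transcripts, so the gene behind a given value is uncertain.

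Of the partners of class I in antigen presentation only TAPBP passed under miR-338-5p. B2M, the invariant light chain, stood at -0.45, -0.36 and -0.46 (adjusted p = 0.13, limma), the peptide transporter subunit TAP1 at 0.17 and NLRC5, the class I transactivator, at 0.10, and the proteasome subunit PSMB9 at -0.22. Under miR-421 B2M (-0.62), TAP1 (-0.49) and PSMB9 (-0.60) passed, lower, as did the transporter subunit TAP2 (-1.01, against -0.24 under miR-338-5p). NLRC5 did not pass there. The differences of B2M, TAP1, TAP2 and PSMB9 between the lines did not pass (limma adjusted p between 0.21 and 0.72). TAPBP (tapasin), which loads peptides, stood at 0.38 in its brightest probe (adjusted p = 0.029, limma), and at 0.36 under miR-421, where it passed too. Dimmer TAPBP probes stood at 0.11 and 0.01 under miR-338-5p and did not pass (limma adjusted p = 0.25 and 0.90). Of 29 interferon response genes (17.2% called, against 10.7% of all genes) 5 rose and 0 fell, with a median of -0.01. These were HLA-B, HLA-C, ISG20 (1.1 ± 0.34), IRF7 (0.99 ± 0.40) and the ubiquitin-like ISG15 (0.62, 0.66 and 0.43). IFIT1 and OAS2, core genes of an interferon response, stood at 0.11 and -0.02 and did not pass. ISG15 was not shared (mean 0.57 against 0.13; adjusted p of the difference 0.33, limma). MX1 and the IFITM genes, which did not pass under miR-338-5p, fell under miR-421, with MX1 at 0.20 against -0.82. The leukocyte markers measured had mean ratios between 0.01 and 0.02 under miR-338-5p.

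Letters of known control elements of class I promoters were looked up, since members of the group rose together. The NF-kB letters GGGGATTCC were in the promoter of HLA-B and in none of the other 3 HLA promoters found (0.282% of all promoters hold them), and the interferon element letters TTTCNNTTC in those of HLA-B and HLA-C (7.86% of all). The shown stretch of HLA-C carries the interferon letters in capitals, and that of HLA-B the NF-kB letters, which overlap no interferon match.

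HLA-B, chr6:31357328-31357376, minus strand: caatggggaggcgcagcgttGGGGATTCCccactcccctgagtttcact

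HLA-C, chr6:31272215-31272263, minus strand: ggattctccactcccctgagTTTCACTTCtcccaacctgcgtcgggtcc

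Keratin 8, with keratin 18 the main intermediate filament pair of simple epithelia, was lower under miR-338-5p. The brightest KRT8 probe (NM_002273; chromosome 12, 53291026 to 53291085, minus strand, hg19) stood at -1.28, -1.41 and -1.26 (mean -1.31 ± 0.08 SD, n = 3; limma adjusted p = 0.0042), against -0.28 under miR-421. The difference of -1.03 did not pass (limma adjusted p = 0.069), but that of a second KRT8 probe did, at -0.87 against 0.09 (limma adjusted p = 0.048). Probes for KRT8 pseudogenes gave like values, with KRT8P12 at -1.26, -1.35 and -1.19. Of 8 probes for KRT8 and its pseudogenes 7 were lower and 7 lay below miR-421 on all arrays. Over all probes, 9.01% passed under miR-338-5p and 19.8% did not overlap. Of the 8, 4 passed the test of the difference (medians -1.23 and -0.06). The exception to the falls was a KRT8 probe designed on the noncoding transcript NR_045962, at 0.49, 0.05 and 0.10. Pseudogene copies are near-identical to KRT8 and may measure its message, so these are not independent genes.

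The keratin 18 probes showed another pattern. As for KRT8, pseudogene copies may measure the message of KRT18, so these probes are not independent genes. All 13 probes for KRT18 and its pseudogenes rose under miR-421 (13 of 13 passed, median 0.75), while under miR-338-5p 2 passed, both lower (median -0.32). All 13 lay below miR-421 without overlap, against 19.8% of all probes that did not overlap in either direction. The brightest KRT18 probe stood at 0.28, -0.35 and -0.25 (mean -0.11) against 0.97. For this probe the Cy3 control signal differed between the sets of arrays by as much as the Cy5 signal, as given below. None of the 13 differences passed (0 of 13; limma adjusted p between 0.064 and 0.21). The hair keratin KRT83 (probe on chromosome 12, 52709702 to 52709761, minus strand, hg19) stood at a mean of -1.15 against 0.13 and passed the test of the difference, -1.28 (limma adjusted p = 0.048).

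**Figure D3:**
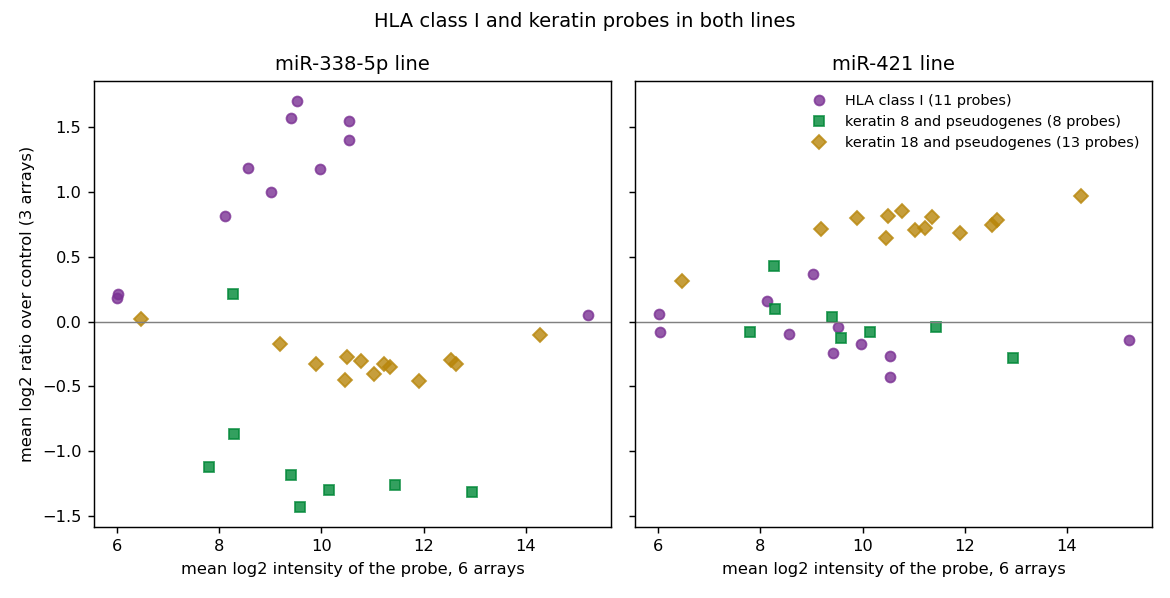
Mean log2 ratio over control against mean log2 intensity of each probe for class I HLA genes (11 probes), keratin 8 (8 probes) and keratin 18 (13 probes), with pseudogenes, in the miR-338-5p line (one panel) and the miR-421 line (the other). In the miR-338-5p panel the class I HLA probes have a median of 1.18, with the brightest, of HLA-E, near 0, and the keratin 8 probes a median of -1.23.

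In glycolysis, which turns glucose into pyruvate and lactate, and in its hypoxia-driven neighbours, part of the genes lay apart between the lines. Of 22 tested genes 13 had ratios that did not overlap, against 21.5% of all genes. All 13 were lower under miR-338-5p than under miR-421 (medians of the list -0.23 and 0.44). ENO1, the enolase, stood at -0.81, -0.66 and -0.67 (mean -0.71 ± 0.08 SD, n = 3; limma adjusted p = 0.0075) against 0.13, and LDHA, lactate dehydrogenase, at -0.80, -0.94 and -0.74 (adjusted p = 0.044, limma) against -0.12. NDRG1, a gene induced by hypoxia and by androgen, stood at -1.41, -0.56 and -1.70 against 0.23. ENO1, LDHA and NDRG1 fell, and only VEGFA of the list rose under miR-338-5p, while 10 rose under miR-421. PGK1 (-0.45 against 0.63), ALDOA (-0.28 against 0.63), GAPDH (-0.24 against 0.40) and HK1 (-0.04 against 0.91) did not pass under miR-338-5p and passed under miR-421. None of the 22 differences passed (0 of 22 in limma; lowest adjusted p = 0.069). Replicate 2 stood apart for PFKP, at -0.89, 1.09 and -0.84.

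**Figure D4:**
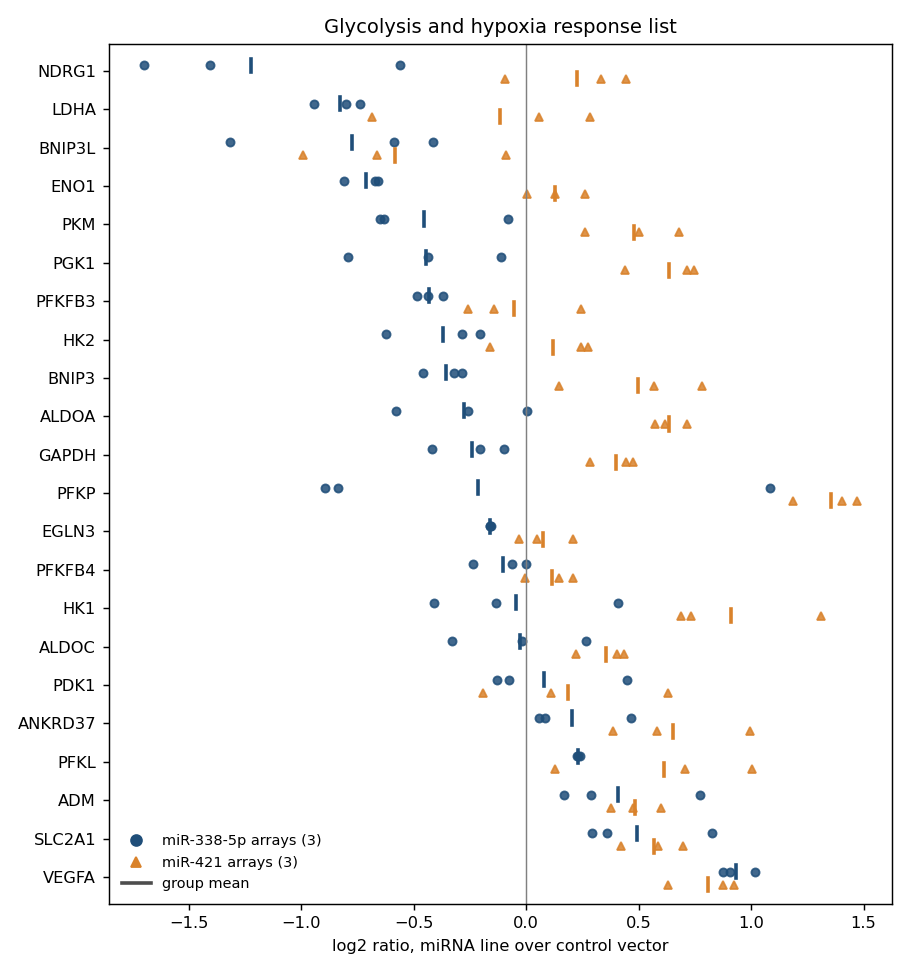
Log2 ratio over control on each array for 22 genes of glycolysis and the hypoxia response, in the miR-338-5p and miR-421 lines. For 13 genes all miR-338-5p points lie left of all miR-421 points, and for VEGFA the lines coincide near 0.9.

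The other 5 of the 8 largest differences on the higher side were these. EPHA3, an ephrin receptor kinase (probe on chromosome 3, 89530861 to 89530920, plus strand, hg19), stood at 0.92, 2.86 and 1.84 against a mean of -0.83. COL9A3, a chain of collagen IX (chromosome 20, 61472271 to 61472330, plus strand), stood at 1.33, 1.96 and 1.57 (1.62 ± 0.32) against -0.17. ITPRID2 (SSFA2 on the array) stood at 0.58, 1.38 and 1.78 against -0.74. For EPHA3, COL9A3 and ITPRID2 every miR-338-5p array was above 0 and every miR-421 array below it. EFEMP1, the matrix glycoprotein fibulin-3, stood at 1.58, 2.37 and 0.65 against 0.06, and ZSCAN18, a zinc finger gene, at 1.51, 2.56 and 1.08 against 0.32. The differences ran from 1.40 for ZSCAN18 to 2.71 for EPHA3 and none of these 5 passed (limma adjusted p between 0.066 and 0.28).

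The lower set beside the keratins held NES, the filament protein nestin (-0.74 against 0.46), RDM1, a gene of DNA repair (-0.94 against 0.17), and PALLD, the actin scaffold palladin (-0.85 against 0.20). Their differences ran from -1.20 to -1.06 and did not pass (limma adjusted p between 0.10 and 0.21). NES had opposite signs on all arrays of the lines in this probe. Dimmer probes of NES, RDM1 and PALLD stood at -0.37, -0.31 and -0.08 under miR-338-5p and did not pass (limma adjusted p between 0.14 and 0.55). The Cy3 control signal was compared between the 2 sets of arrays (miR-338-5p minus miR-421, log2 scale). Over the genes named as not shared its gap ran from -0.08 for HLA-B to 0.28 for HLA-G, with 0.24 for HLA-C, 0.18 for ZSCAN18 and 0.16 for RDM1. It was 0.55 for the brightest KRT18 probe, as large as the -0.53 of its Cy5 signal. The Cy5 signal differed by 1.67 for HLA-B, 1.63 for HLA-G, 2.77 for EPHA3, -0.96 for KRT8 and -1.48 for NDRG1.

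**Figure D5:**
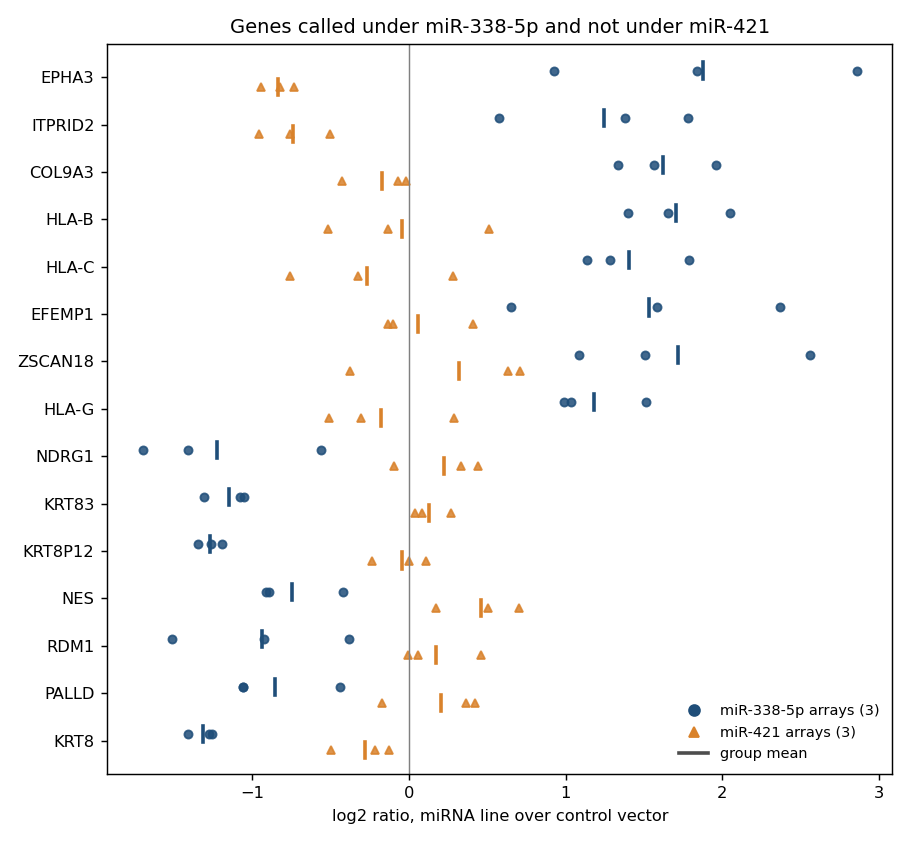
Log2 ratio over control on each array of the miR-338-5p and the miR-421 line for 15 genes with large differences among those not shared, 8 higher and 7 lower under miR-338-5p. The groups do not overlap for any of the 15, which the rule required.

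Members of other lists gave smaller changes that were not shared. Of the lists, 3 of 21 epithelial (14.3%), 2 of 13 mesenchymal (15.4%) and 2 of 9 EGF receptor family genes (22.2%) passed, against 10.7% of all genes, and nothing is read from such small counts. GRHL2, a transcription factor that maintains epithelia, stood at 0.70, 1.05 and 1.01 (adjusted p = 0.027, limma) against -0.25 under miR-421, where the signs were mixed. SNAI1, the repressor Snail, stood at -0.45, -0.39 and -0.16 (adjusted p = 0.043, limma) against 0.03. The epidermal growth factor receptor EGFR stood at -0.36, -0.49 and -0.48 (adjusted p = 0.021, limma) against 0.00. The co-chaperone DNAJB1 (-0.45 against -0.09) and the silencing helicase MOV10 (-0.37 against -0.01) fell too. The tested differences, 1.16, -0.37, -0.45, -0.36 and -0.36 in that order, did not pass (limma adjusted p between 0.14 and 0.26). E-cadherin (CDH1) stood at -0.15 and did not pass (adjusted p = 0.65, limma).

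A further 30 genes passed in both lines with opposite signs, 15 of them higher under miR-338-5p. They were examined after their values were seen. BTG1, an antiproliferative gene, stood at 0.78, 0.69 and 1.61 against -0.92, and CDKN1B, the cell cycle inhibitor p27, at 0.77, 0.46 and 0.79 against -0.55. ID4, an inhibitor of helix-loop-helix factors, stood at 0.94 against -0.71. BMI1, a polycomb repressor subunit, stood at 0.37, 0.73 and 0.27 against -0.67, and with it moved its neighbours on chromosome 10, COMMD3 (0.30 against -0.98) and the chaperone gene DNAJC1 (0.79 against -0.71). Their probes lie at 22619577, 22608978 and 22048168 on hg19. On the lower side, the small nucleolar RNA SNORA67 stood at -0.99 against 1.18, PAM, a peptide-amidating enzyme, at -0.68 against 0.37, and MYBL2, a factor of cell cycle genes, at -0.37 against 0.45. Apart from COMMD3 and VMA22 the differences of these 30 genes did not pass.

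Of the 13 probes that passed the test of the difference, 6 were lower under miR-338-5p and near the control under miR-421: KRT83, 1 probe of KRT8, 3 of KRT8 pseudogenes and an unnamed probe on chromosome 7 (-1.03 against 0.00). For the probes of CFC1, PPP3CA, MAP7D1 and SOD3 the ratio under miR-338-5p was near 0 (0.05, -0.08, 0.01 and 0.08), and the ratio under miR-421 was the larger in size. A brighter MAP7D1 probe stood at 0.63, 0.54 and 0.39 (adjusted p = 0.016, limma) against 1.33, so the probes of this gene disagree under miR-338-5p. The PTPN18 probe, for a tyrosine phosphatase, stood at -0.42 against 1.91, while a brighter probe of the gene stood at 0.48, 0.08 and 0.21 against 1.90 (adjusted p of the difference 0.070, limma), so its direction under miR-338-5p is not settled. VMA22 (CCDC115 on the array), an assembly factor of the proton pump, stood at -0.83, -0.43 and -0.86 against 0.93. The VMA22, PTPN18 and CFC1 probes lie within 261 kb of chromosome 2 on hg19. For SOD3 the Cy3 control signal itself was 1.03 lower on the miR-338-5p arrays.

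Letters that pair with the miR-338-5p seed were looked for in the probes, the only stretches of message sequence used here. The complement of the seed, ATATTGT, was in 140 of 27507 tested probes (0.509%), in 7 of 1446 called lower (0.484%) and in 9 of 1033 called higher (0.871%). Probes of 60 bases cover a small piece of each message, so this says nothing of sites elsewhere. The stretches in 3 of the messages that fell are shown as examples of the part of the data nearest to a possible site, with the letters in capitals.

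PCLAF: atggtgccATATTGTcactcctt

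NIBAN2: cctccctgATATTGTattgaaaa

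CHEK1: gctgattgATATTGTgagcagcc

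PCLAF, a PCNA-binding factor, stood at -0.79, -1.52 and -1.53 (adjusted p = 0.013, limma), and at -0.84 under miR-421, whose seed is another. NIBAN2 stood at -0.55 against -0.10, where it did not pass, and CHEK1, a checkpoint kinase, at -0.43 against -0.35. The hg19 probe positions of PCLAF, NIBAN2 and CHEK1 are chromosome 15, 64657847 to 64657906, chromosome 9, 130267640 to 130267699, and chromosome 11, 125525158 to 125525217.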

How the data were processed

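Per the file headers, the authors scanned 2-colour Agilent arrays, all on 1 slide, and Feature Extraction 11.5.1.1 gave the deposited intensity of each spot and its local background, not normalized. The same software gave a processed log10 ratio (red over green), per the file headers. The authors' deposited table of log2 ratios per gene name tracked this ratio (r between 0.988 and 0.999 over genes); its column medians were 0.03, 0.02 and -0.06 for miR-338-5p and -0.16, 0.01 and -0.12 for miR-421. Poly(A) tailing and oligo-dT labelling, per the labels' protocols, may let noncoding RNAs be labelled.

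Here R 4.3.3 and limma 3.58.1 were used: normexp (offset 50), loess per array without control and outlier spots, and averaging of spots per probe. Of 58201 probes, 27509 were kept, those flagged well above background in red or green on 3 or more of 6 arrays. All 6 arrays entered 1 fit (prior degrees of freedom 2.05), tested two-sided with Benjamini-Hochberg adjustment at 0.05. With no dye swap, a dye bias enters each ratio, and the control's own spread is left out if 1 culture supplied all arrays.

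Named genes were the 10 largest rises and falls past the threshold with 1 sign on all arrays, the 8 largest differences each way among genes not shared, all difference calls, and SPINK1, EZH2, MTDH, AATK and FTX; list members followed the same calls. The members and lists were chosen with earlier results of these data known. Gene names and promoters came from RefSeq (GRCh38.p14). Some genes, 1 of them named by this rule, are not reported here. No exon, intron or UTR annotation entered. The fit was first checked on simulated data.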

Additional observations from a re-analysis of the deposited data

Results flagged for a closer look

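These results stood out because the effect against control differed between the miR-338-5p and the miR-421 line. Differences are miR-338-5p minus miR-421 on the log2 scale, and no explanation was tested. The test of the difference (limma, adjusted p under 0.05) passed for CFC1 (3.04), PPP3CA (2.21), COMMD3 (1.28), PTPN18 (-2.34), SOD3 (-2.27), VMA22 (-1.63), KRT83 (-1.28), MAP7D1 (-1.18) and a KRT8 probe (-0.96). It also passed for probes of 3 KRT8 pseudogenes, A_33_P3303430 (-1.23), A_33_P3417589 (-1.22) and A_24_P7750 (-1.05), and for the unnamed probe A_33_P3221980 (-1.03).

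For 4 genes every array of one line lay above 0 and every array of the other below it, and the test of the difference did not pass: EPHA3 (2.71), ITPRID2 (1.98), COL9A3 (1.79) and NES (-1.20).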

How the results depend on the processing

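With 3 arrays a group, counts moved widely. The 2479 probes called under miR-338-5p became 986 in the authors' table, 1601 with subtracted background, 1095 with the software's ratio, 1284 with median centring, 1586 without a filter on dim probes and 211 with the line's own arrays alone, and 409 to 3647 with 1 array left out. Of the 1674 genes called, 601, 816, 548, 670 and 141 were called again in the authors' table, with subtraction, the software's ratio, median centring and own arrays. The 13 differences became 6 in the authors' table, 2 with the software's ratio, 2 with median centring, 46 without background correction, 89 with trended and robust variance, and 0 to 4 with 1 array left out. The 365 genes not shared became 180, 228, 154 and 161 in the authors' table, with subtraction, the software's ratio and median centring, and 65 to 803 with 1 array left out. The 5911 miR-421 probes became 3877 with median centring, and 622 to 5498 with 1 array left out. Median centring moved the median of all genes from -0.01 to -0.11. Of the gene ratios, RPS21 alone reversed, from 0.56 to -0.25 in the authors' table (adjusted p = 0.44, limma). The share of calls that were lower fell from 58.3% to 44.2%, 45.5% and 45.8% in the authors' table, with subtraction and the software's ratio, and rose to 82.0% with median centring. The medians of 9 gene lists changed sign in some alternative, among them the ER chaperone, interferon, p53, ephrin and neuroendocrine lists. Causes were not tested. With the replicate number as a block, 2671 probes were called under miR-338-5p and 0 differences passed. The lines share only 2 numbers. Deviations of same-numbered arrays correlated with r of -0.14 and -0.21, and those of other-numbered arrays with 0.05 and 0.12. The labels do not say whether the numbers pair the samples, and so few values cannot decide it. Probes near background have compressed ratios, which limits dim genes.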
